A study of Mus musculus with 12 samples.

Results

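Total RNA of whole *Mael*-/- testes was compared with that of *Mael*+/- testes over the gene rows of a table of counts. The comparison uses 6 of the 12 libraries of the study, 3 of each genotype. The others are ribosome footprints, and per the methods the RNA came from aliquots of the extracts that gave them. All mice were C57BL/6 males at postnatal day 16. The *Mael*-/- mice lack the protein Maelstrom, and the *Mael*+/- controls still carry 1 mutant allele, so no wild-type level was measured. An extract holds germ cells and somatic cells together, the labels do not say how many animals went into each, and they give no litter, extraction or sequencing batch. The study asked how germ cells fare when the retrotransposon LINE-1 escapes control, and this comparison asks which genes differ in RNA level.

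*Mael* belongs to the piRNA pathway. Piwi proteins carry piRNAs, small RNAs that guide the cleavage and transcriptional silencing of transposons, and Maelstrom acts with them in the germ granules and nuclei of fetal and meiotic germ cells. Male mice without it are sterile because spermatocytes arrest during meiotic prophase. The first wave of spermatogenesis runs in near synchrony, so a testis of this age holds spermatogonia, early prophase cells (leptotene and zygotene) and the first pachytene spermatocytes beside Sertoli, Leydig, peritubular and blood-borne cells.

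Of 20620 genes in the table, 17742 had at least 1 count in an RNA library, and library totals ran from 13697267 to 27462358 gene counts. *Clu*, a Sertoli cell gene, was the most abundant gene in every library. The 16 Sertoli markers summed to between 8613 and 9939 CPM, a scale set by the total of gene counts and the TMM factor of each library. Markers of germ cells up to pachytene were present in all 6 libraries. Spermatid markers were near 0, with 5 of 16 at 0 counts in every library and a sum of 3.10 to 5.11 CPM. Epididymis markers were nearly absent, with 4 of 9 at 0 everywhere and a sum of at most 0.291 CPM, and the 4 hemoglobin genes listed had 0 counts. On the same erythroid list *Alas2* had 4.49 to 11.0 CPM and *Slc4a1* 0.218 to 0.875 CPM. The hemoglobin counts therefore do not show that red cell RNA was absent.

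The library labelled *Mael*+/- replicate 1 stood apart. Its log2 CPM correlated across genes with the other 5 libraries at 0.975 to 0.983, while those correlated with each other at 0.985 to 0.994 (genes are not independent replicates). The first principal component took 47.6% of the variance, and on it this library lay at -46.9, the other *Mael*+/- libraries at -2.0 and -2.13, and the *Mael*-/- libraries between 16.2 and 18.7. Without it the biological coefficient of variation fitted by edgeR was 9.15% in place of 13.6%. Each result is therefore given with all 6 libraries and with the 5 that remain.

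With 6 libraries, 17 of 14685 genes (0.116%) had an adjusted p under 0.05 in the quasi-likelihood test of edgeR. Of these, 16 rose in *Mael*-/- testes (0.109%) and *Mael* alone fell (0.00681%). Without *Mael*+/- replicate 1, 64 of 14876 genes (0.43%) passed, 41 of them higher (0.276%) and 23 lower (0.155%), and the 17 were all among them. An unadjusted p under 0.05 was found for 5.4% of genes with 6 libraries, 2.32% higher and 3.08% lower, and for 6.41% without that library, 3.56% higher and 2.85% lower. Values of the genotypes did not overlap for 5.23% of genes upward and 5.03% downward with 6 libraries, and for 10.3% and 9.81% with 5. The median log2 fold change over all genes tested was -0.001 and 0.002 in the 2 fits.

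**Figure D1:**
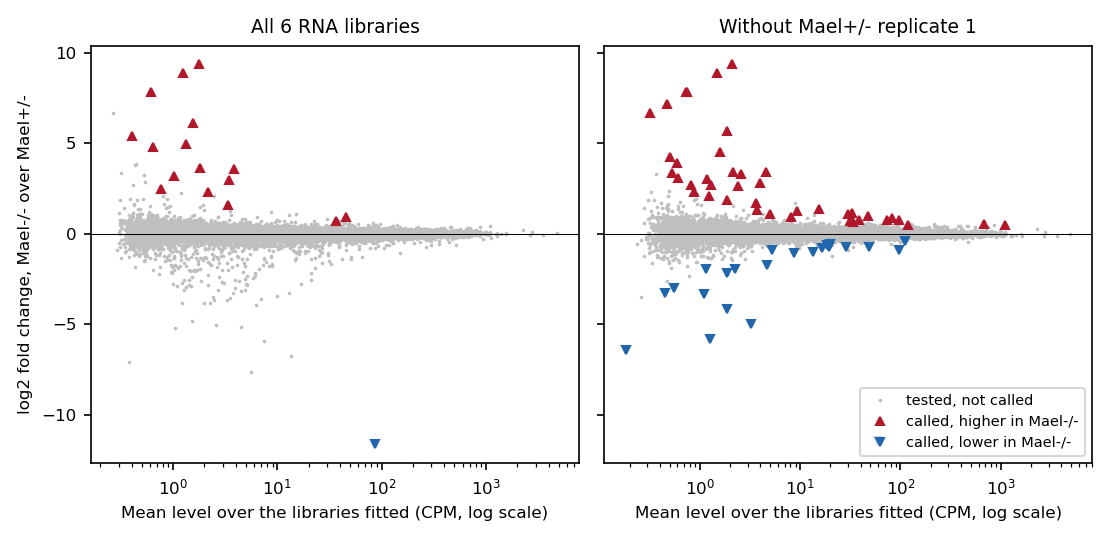
Log2 fold change of RNA in *Mael*-/- over *Mael*+/- testes (y axis) against the mean level in CPM on a log scale (x axis), for each gene tested, with all 6 libraries (left) and without *Mael*+/- replicate 1 (right). Grey points are genes not called, upward triangles called genes that were higher and downward triangles called genes that were lower; 16 and 1 genes are marked on the left, 41 and 23 on the right.

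*Mael* itself (chr1:166201385-166238744, GRCm38, 12 exons) checks the labels. It had 219, 158 and 144 CPM in *Mael*+/- replicates 1 to 3 and 0.0728, 0.0991 and 0 CPM in the *Mael*-/- libraries, which is 3 counts in all. The level was 3499-fold lower (95% interval 1197 to 16970, counting error only), with an edgeR adjusted p of 3.59e-07 and of 4.17e-14 without *Mael*+/- replicate 1.

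Most of the 16 genes that rose with 6 libraries were hardly expressed in the controls, and several are known from liver, pancreas, kidney or nervous tissue. In the *Mael*+/- libraries 13 of them averaged under 1 CPM (81.3%, against 7.20% of all genes tested), and their median mean level was 0.211 CPM there and 3.23 CPM in the *Mael*-/- libraries. Per length of exon, their median level in *Mael*-/- testes stood at the 13.4th percentile of the genes tested, so they stayed low among testis transcripts. Many were long: the median span was 78.0 kb against 24.5 kb for all genes tested, and 37.5% spanned over 100 kb against 14.5%. None was on the X or Y chromosome. All 16 had every *Mael*-/- library above every *Mael*+/- library, so *Mael*+/- replicate 1 was the highest library for none of them. Their choice by the difference between genotypes in these same libraries fixes most of this. It also bears on the share under 1 CPM, since genes at 0 in the controls passed the filter on low counts through their *Mael*-/- libraries alone.

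Both fibrocystins, giant proteins with a single transmembrane segment, were among them. *Pkhd1l1* (chr15:44457396-44601376, 78 exons), which codes for fibrocystin-L, had 0.433, 0.622 and 0.68 CPM in *Mael*+/- testes and 7.86, 7.38 and 6.09 CPM in *Mael*-/- testes. The lowest *Mael*-/- library thus lay far above the highest control. *Pkhd1* (chr1:20057779-20618082, 67 exons), the gene of polycystic kidney and hepatic disease, had 0.563, 1.02 and 0.718 CPM against 5.82, 7.53 and 5.00 CPM. Their means rose 12.3-fold and 7.96-fold, and the log2 fold changes without *Mael*+/- replicate 1 were 3.43 (SE 0.26, edgeR adjusted p 5.7e-06) and 2.80 (SE 0.28, adjusted p 9.94e-05).

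The genes of longest span were *Lrp1b*, an endocytic receptor of the LDL receptor family, at 2058 kb, and *Csmd1*, a membrane protein of complement-like repeats, at 1643 kb. *Lrp1b* had 0, 0.146 and 0.0755 CPM in the controls and 1.82, 3.32 and 2.59 CPM in *Mael*-/- testes. *Csmd1* had 0.173, 0.293 and 0.340 CPM against 3.49, 3.96 and 2.70 CPM. They too did not overlap between genotypes. Of a list of 25 paralogs of raised genes, 17 were tested, 2 were called, which were *Pkhd1* and *Pkhd1l1* themselves, and the median log2 fold change was 0.08. Of the 17, 11 were higher and 6 lower. An unadjusted p under 0.05 in edgeR with a higher level was found for 5, those 2 included, against 2.32% of all genes. Another of the 5, *Aig1*, had 7.11, 8.56 and 6.19 CPM in *Mael*+/- and 9.97, 10.3 and 10.1 CPM in *Mael*-/- testes. *Csmd2* had 0.303, 0.695 and 0.378 CPM against 0.801, 0.843 and 0.693 CPM, and *Lrp1*, the abundant paralog of *Lrp1b*, had 447, 464 and 524 CPM against 517, 454 and 512 CPM.

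A further group codes for secreted or membrane proteins of liver, pancreas, gut and immune cells. *Reg2*, a lectin secreted by the pancreas, had 0 counts in each *Mael*+/- library and 2.77, 5.06 and 2.70 CPM in *Mael*-/- testes. The lectin gene *Clec2g* and *Mup3*, a major urinary protein of the liver, were likewise at 0 counts in the controls, with 1.89, 3.52 and 2.04 CPM and 0.946, 1.69 and 1.06 CPM in *Mael*-/- testes. Against a floor of 3 counts per library these are at least 29.8-fold, 21.1-fold and 10.4-fold higher. *Gc*, the plasma carrier of vitamin D, had 3 counts in *Mael*+/- replicate 3 and none in the others, against 2.40, 4.31 and 2.52 CPM, a ratio of 79.0 (95% interval 26.6 to 386, counting error only). *Il23r*, a receptor subunit for interleukin 23, and *Cdh26*, a cadherin of epithelia, had 1 and 3 control counts in all, and their ratios were 58.9 (95% interval 10.1 to 2376) and 31.3 (95% interval 10.3 to 155).

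Few other liver and pancreas genes were measurable. Of 12 proteins secreted by the liver, 4 were tested and *Gc* and *Mup3* were called. *Ahsg* had 19.3, 23.8 and 29.6 CPM against 26.6, 24.9 and 27.0 CPM, and *Alb*, too low to be tested, had 0.477, 0.329 and 0.264 CPM against 0, 0.595 and 0.365 CPM. Of 11 pancreas and gut genes, 4 were tested and *Reg2* was called. *Gc*, *Mup3* and *Reg2* are themselves among the 16 raised genes, so these lists add no further call. Of all genes tested, 0.109% were called higher. *Reg1* and *Prss2* had 0 counts in all 6 libraries, and *Ins2* had 2.38, 3.55 and 3.93 CPM against 2.62, 3.77 and 4.49 CPM. *Clec2g* and *Mup3* have close relatives in the genome, and how reads common to several of them were assigned is unknown, which leaves both uncertain. Among the relatives on the paralog list, *Clec2e*, *Clec2f* and *Clec2h* were at most 0.113 CPM in each library and *Clec2i* reached 0.438 CPM. *Clec2l* ran from 6.99 to 12.6 CPM with overlap, and *Clec2d* had 9.27, 8.96 and 11.97 CPM against 13.7, 14.3 and 13.3 CPM, with no overlap and no call.

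The remaining raised genes had roles in adhesion, the senses and the cytoskeleton. *Inadl* (now *Patj*, chr4:98395560-98719603), a scaffold of epithelial polarity, was the most abundant of the 16 and rose 1.92-fold, from 31.5, 33.7 and 27.4 CPM to 58.1, 58.9 and 61.0 CPM. *Sfi1*, a centrosomal protein that binds centrin, rose 1.65-fold, from 28.6, 28.7 and 26.2 CPM to 48.5, 44.7 and 44.3 CPM. These 2 genes varied little within a genotype, and they alone averaged over 10 CPM. *Cntn6*, a neuronal contactin, rose 3.00-fold (edgeR adjusted p 0.0334), *Pamr1*, a protease-related protein, 5.00-fold (adjusted p 0.0434), *Tmc2*, part of the mechanosensitive channel of hair cells, 9.62-fold (adjusted p 0.0444), and *Adtrp*, a membrane hydrolase, 5.59-fold (adjusted p 0.0434).

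**Figure D2:**
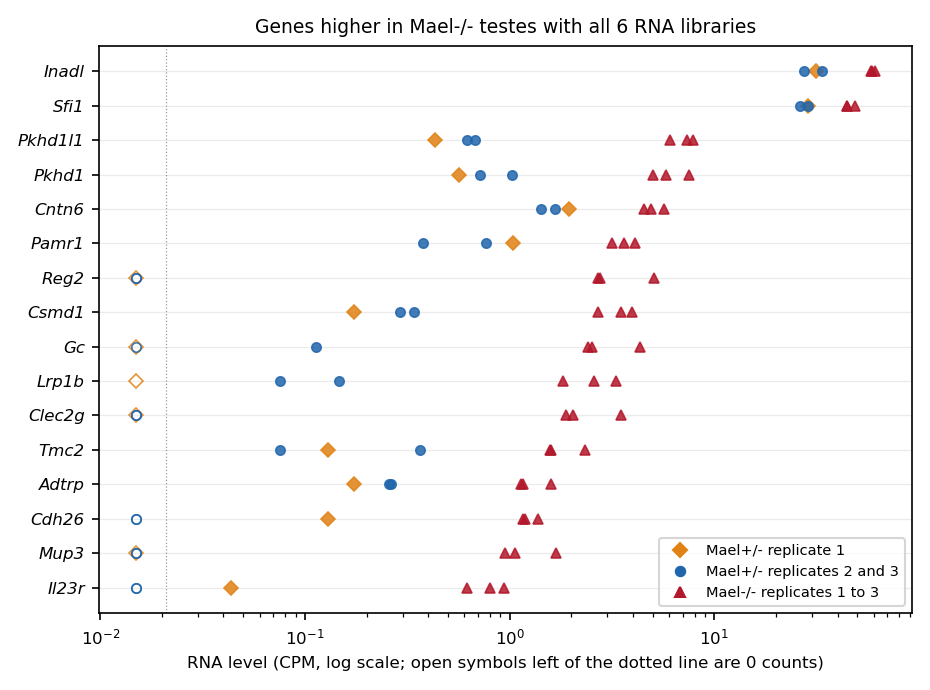
RNA level in CPM (x axis, log scale) of the 16 genes that were higher in *Mael*-/- testes with all 6 libraries, 1 row per gene and 1 symbol per library. Diamonds are *Mael*+/- replicate 1, circles *Mael*+/- replicates 2 and 3, triangles the *Mael*-/- libraries, and open symbols left of the dotted line are libraries with 0 counts; in each row every triangle lies right of every control.

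Leaving out *Mael*+/- replicate 1 added 25 genes to those higher in *Mael*-/- testes. Some were at low levels in controls, as most of the 16 were. *Dnah6*, a heavy chain of the inner dynein arm of cilia and flagella, had 2.04, 0.512 and 0.302 CPM in *Mael*+/- testes and 4.59, 3.37 and 4.08 CPM in *Mael*-/- testes (log2 fold change 3.27, SE 0.33, edgeR adjusted p 9.94e-05 with 5 libraries; 2.10, SE 0.54, adjusted p 0.596 with 6). Also low in controls 2 and 3 were *BC051019*, *Caps2*, *Cdh12*, *Hao1*, *C1rb* and *Clca4*. *Cdh12*, a neuronal cadherin, had 2, 2 and 0 counts against 14, 16 and 17, and *Robo2*, a receptor of axon guidance that was already expressed, had 5.55, 4.46 and 5.85 CPM against 9.46, 16.2 and 10.8 CPM. *Cdh12* and *Robo2* both span over 1 Mb.

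Other added genes have known roles in meiotic prophase. *Meiob* (chr17:24804301-24839788), which codes for a single-strand DNA binding protein of meiotic recombination, had 61.9 CPM in *Mael*+/- replicate 1, 20.2 and 24.9 CPM in replicates 2 and 3, and 39.0, 42.2 and 29.9 CPM in *Mael*-/- testes. Its *Mael*-/- values thus lay between the control libraries, and it rose in the fit without replicate 1 only (log2 fold change 0.71, SE 0.15, edgeR adjusted p 0.0492, against 0.05, SE 0.35, adjusted p 0.995 with 6). *Fbxo43*, an inhibitor of the anaphase-promoting complex that spermatocytes need, had 10.1, 3.29 and 2.72 CPM against 6.91, 6.69 and 5.65 CPM. *Ccnb3* (chrX:6979652-7041635), a cyclin of early prophase, had 90.0, 58.4 and 51.0 CPM against 119, 102 and 81.8 CPM, and *Fbxo47* 46.7, 26.0 and 25.3 CPM against 39.2, 45.5 and 33.5 CPM. In all 4 of these genes the *Mael*-/- libraries lay above controls 2 and 3, and *Mael*+/- replicate 1 was within or above the *Mael*-/- range for each.

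Histone genes of germ cells were among them as well. *H2afx* (chr9:44334715-44336077), the histone variant that is phosphorylated along DNA breaks and over the silenced sex chromosomes, had 1021, 899 and 866 CPM in *Mael*+/- testes and 1206, 1340 and 1203 CPM in *Mael*-/- testes. The genotypes did not overlap even with all 6 libraries, but the gene passed only without replicate 1 (log2 fold change 0.50, SE 0.10, edgeR adjusted p 0.0353; with 6, 0.43, SE 0.09, adjusted p 0.388). *Hist1h2aa*, a testis-specific H2A, had 827, 562 and 502 CPM against 732, 876 and 711 CPM. Per length of exon both were far above most genes, *Hist1h2aa* at the 99.9th percentile of those tested.

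Sex-linked genes shared the upward direction. Of 582 X-linked genes tested, 381 (65.5%) had a log2 fold change above 0, while the share on single autosomes ran from 45.5 to 56.9%. Their median log2 fold change was 0.06 in both fits, and single autosomes reached at most 0.03. An unadjusted p under 0.05 with a higher level was found for 5.84% of them against 2.32% of all genes, with autosomes at 1.30 to 5.39%. By library the median of the X-linked genes overlapped between genotypes, at -0.04, -0.09 and 0.05 against 0.05, 0.04 and 0.01 on the log2 scale. None was called with 6 libraries, and without *Mael*+/- replicate 1 the 5 called genes were *Usp26*, *Pet2*, *Tktl1*, *Ccnb3* and *1700080O16Rik*. In that fit 62.7% of 590 were higher, and autosomes ran from 43.5 to 58.1%. An unadjusted p under 0.05 with a higher level was found for 9.15% of the X-linked genes, with autosomes at 1.8 to 7.31%. Genotypes did not overlap upward for 14.92% of them, and chromosome 13 reached 14.97%. This chromosome split was made after the values were seen.

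The called X-linked genes are expressed in germ cells. *1700080O16Rik* had 13.1, 8.74 and 7.06 CPM in *Mael*+/- testes and 22.9, 19.08 and 18.7 CPM in *Mael*-/- testes, with no overlap. *Tktl1*, a transketolase-like enzyme, had 95.9, 71.8 and 64.8 CPM against 116, 125 and 102 CPM, again with no overlap. *Usp26*, a ubiquitin protease, had 121, 95.2 and 97.0 CPM against 148, 138 and 120 CPM, so that its highest control just exceeded its lowest *Mael*-/- library. On the Y chromosome 8 genes were tested and *Zfy2*, a transcription factor of the pachytene checkpoint, was called without replicate 1 (14.0, 4.94 and 5.51 CPM against 12.7, 8.52 and 9.08 CPM).

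**Figure D3:**
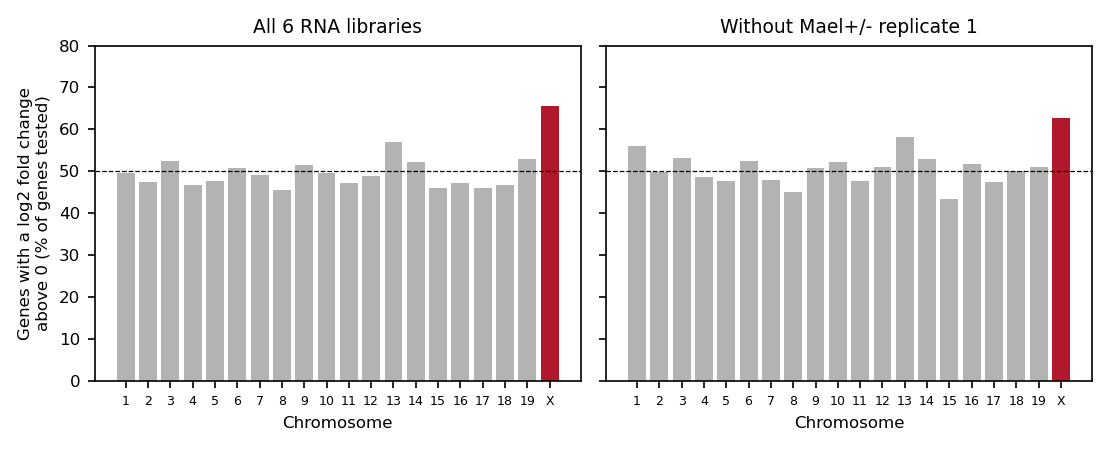
Share of the genes tested on each chromosome whose log2 fold change was above 0 (y axis, percent), with all 6 libraries (left) and without *Mael*+/- replicate 1 (right). Bars start at 0, the dashed line marks 50%, and the X chromosome, in red, stands at 65.5% and 62.7%, above each of the 19 autosomes.

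Of the genes lower without *Mael*+/- replicate 1, *Mael* alone also passed in the edgeR test of all 6 libraries. With the replicate number as a term in that test, 24 genes were lower over the 6 libraries. The labels do not say that libraries with the same number belong together, so no conclusion is drawn from these 24. Of the listed genes, *Adam2* and *Hspa2* of the pachytene program, *Cntd1* of recombination, *Morc2b* of the transposon silencing list and *Mael* were called lower without replicate 1, and no gene of the acrosome, axoneme or spermatid lists was. That library was the highest of the 6 for 21 of the 23 genes lower in the fit with 5 libraries (91.3%). Of the 424 genes lower at an unadjusted p under 0.05 in the same fit, it was the highest for 39.2%, and *Mael*+/- replicate 2 for 53.3%. The 2 exceptions among the 23 were *Sel1l3* and *Kcnt1*. With all 6 libraries, 22 of the 23 did not overlap between genotypes, against 5.03% of all genes downward; their choice by the difference from controls 2 and 3 fixes most of this. Their median log2 fold change was -3.27 with 6 libraries and -1.72 with 5. In whole testes, fewer cells of a type and less RNA per cell cannot be told apart. DESeq2, which the study used, called 32 genes lower with 6 libraries, and *Mael*+/- replicate 1 was the highest library in all 32. Among these, *Pmel* had 15.9, 12.1 and 11.1 CPM in *Mael*+/- and 8.22, 6.59 and 7.18 CPM in *Mael*-/- testes. *Tcf20* had 755, 593 and 529 CPM against 402, 448 and 379 CPM. Neither overlapped between genotypes, and neither passed in edgeR in either fit.

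*Mroh4* and *Morc2b* were nearly silent in *Mael*-/- testes. *Mroh4* (chr15:74606026-74636804, 27 exons), of the HEAT-repeat family named after maestro, had 65.0, 5.12 and 10.6 CPM in *Mael*+/- testes and 0.218, 0.0496 and 0.401 CPM in *Mael*-/- testes. *Morc2b* (chr17:33135588-33150499), an ATPase of the MORC family that spermatocytes need, had 35.5, 3.04 and 5.74 CPM against 0.0728, 0.198 and 0.365 CPM. Controls and *Mael*-/- libraries were far apart in both, and the controls themselves spread over a more than 10-fold range. Against *Mael*+/- replicates 2 and 3 alone they were 35.2-fold and 20.7-fold lower (edgeR adjusted p 2.93e-05 and 9.94e-05), and with 6 libraries the adjusted p was 0.114 and 0.159. Footprint libraries gave *Mroh4* 538, 43 and 84 counts in *Mael*+/- and 1, 4 and 3 in *Mael*-/- extracts, with replicate 1 again the highest. *1700006A11Rik* had 27.5, 1.83 and 4.31 CPM of RNA in *Mael*+/- testes and 0.218, 0 and 0 CPM in *Mael*-/- testes. Its edgeR adjusted p was 0.000512 without replicate 1 and 0.194 with 6 libraries.

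Genes of sperm structure and fertilization followed. *Adam2* (chr14:66027322-66077851), the beta subunit of the sperm protein fertilin, had 30.2, 3.04 and 5.10 CPM in *Mael*+/- testes and 1.09, 0.991 and 1.06 CPM in *Mael*-/- testes. *Zmynd10*, which helps assemble dynein arms, had 21.1, 1.43 and 3.32 CPM against 0.509, 0.0496 and 0.219 CPM. Neither overlapped, and both had their highest control in replicate 1. *Pdcl2*, a testis chaperone cofactor, fell 4.58-fold relative to controls 2 and 3, *Ccdc60* 4.04-fold, *Fabp9*, the fatty acid binding protein of the sperm head, 3.25-fold, and *Zmynd10* 9.16-fold. *Ly6k* and *Gml*, surface proteins with a lipid anchor, fell 1.66-fold and 2.0-fold.

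Lowered genes also included enzymes, a chaperone and nuclear proteins. *Hspa2* (chr12:76403812-76406938), the heat shock protein 70 that meiosis requires, had 355, 134 and 128 CPM in *Mael*+/- testes and 99.4, 101 and 92.2 CPM in *Mael*-/- testes. *Cers3*, which makes ceramides with very long chains, had 83.0, 11.4 and 14.0 CPM against 6.33, 4.66 and 7.0 CPM. The *Mael*-/- libraries lay close together in both, below the lowest control. *Cntd1* (chr11:101279203-101288701), which turns recombination intermediates into crossovers, had 97.3, 24.4 and 26.4 CPM against 17.0, 17.0 and 12.1 CPM (log2 fold change without replicate 1 of -0.74, edgeR adjusted p 0.0367). *Fbp1*, an enzyme of gluconeogenesis, fell 9.44-fold relative to controls 2 and 3, and *Rfx4*, a transcription factor of the RFX family, 11.7-fold. Both folds rest on few counts. *Fbp1* had 296, 19 and 45 counts in *Mael*+/- and 0, 4 and 5 in *Mael*-/- libraries, and *Rfx4* had 158, 20 and 34 against 0, 3 and 3. *Tktl2*, *Tcam1*, *Tcea2* and *Pde1c* fell 1.47-fold to 1.85-fold.

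A pair of called genes had another pattern among the controls. *Sel1l3* had 73.5, 162 and 103 CPM in *Mael*+/- testes and 54.4, 69.0 and 89.6 CPM in *Mael*-/- testes, and *Kcnt1*, a potassium channel, had 17.0, 26.4 and 20.7 CPM against 14.7, 14.8 and 15.4 CPM. *Mael*+/- replicate 1 was the lowest control in both, and for *Sel1l3* it lay within the *Mael*-/- range.

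**Figure D4:**
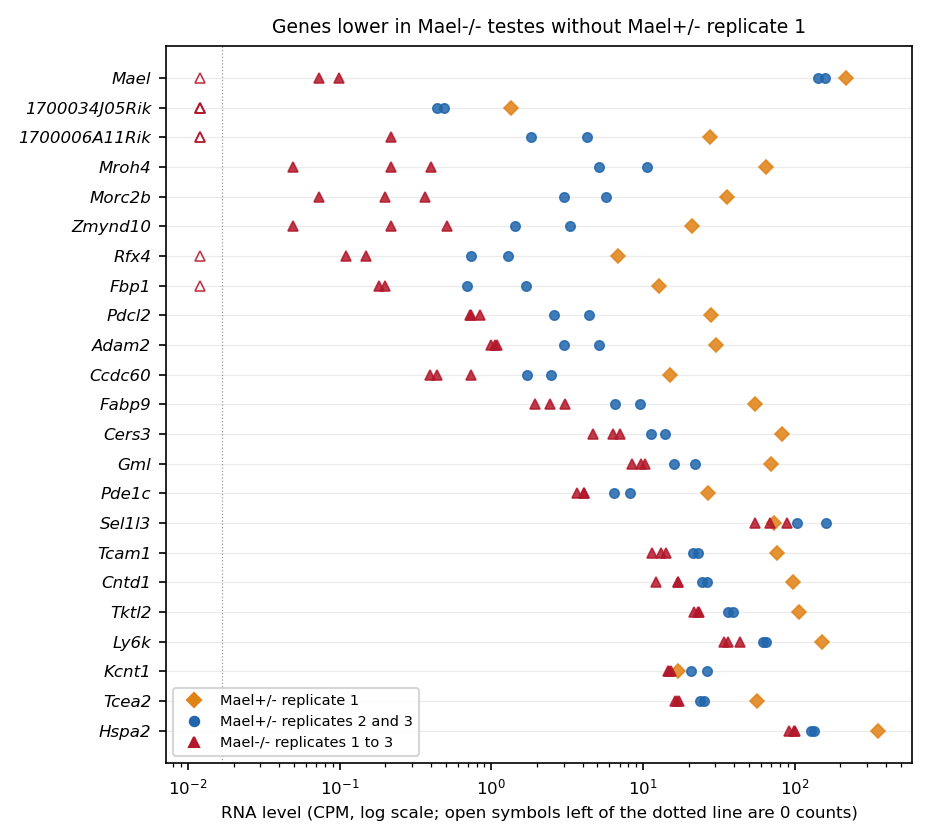
RNA level in CPM (x axis, log scale) of the 23 genes that were lower in *Mael*-/- testes without *Mael*+/- replicate 1, 1 row per gene, ordered by log2 fold change, 1 symbol per library. Diamonds are *Mael*+/- replicate 1, circles *Mael*+/- replicates 2 and 3 and triangles the *Mael*-/- libraries; diamonds are rightmost in 21 rows, and open symbols left of the dotted line are libraries with 0 counts.

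Genes of the pachytene and flagellar programs share regulators of the MYB and RFX families, which bind in promoters. RefSeq promoters of GRCm38.p6 were found for 14 of the 23 lowered genes, 19 promoters in all, and the 250 bases before each start were searched on both strands. The MYB letters TAACNG or CAACNG were in 11 (57.9%), against 43.1% of all 32851 promoters. GTTGCC, one arm of the X-box that RFX factors bind, was in 5 (26.3%, against 10.4%), and TGACGT, one arm of a cAMP response element, in none of 19 (against 6.47%). For the 41 raised genes, with 34 promoters, the shares were 52.9%, 5.88% and 11.8%. For the genes of the pachytene program listed below, with 26 promoters, they were 57.7%, 7.69% and 11.5%. The promoters of the lowered genes *Zmynd10* and *Cers3* held none of these letters. CAACNG can overlap GTTGCC read on the other strand. MYB letters also lay 14 bases before a start of *Morc2b* and 40 bases before a start of *Rfx4*, in promoters inside their gene spans that are not shown. Promoters of 4 lowered genes are shown as examples. They carry these letters, in capitals, and are read on the strand of the gene up to the first base of its RefSeq span (*Pdcl2* chr5:76331157-76331406, minus strand; *Ccdc60* chr5:116289001-116289235, minus; *Fbp1* chr13:62888299-62888532, minus; *Cntd1* chr11:101278953-101279202, plus):
Pdcl2: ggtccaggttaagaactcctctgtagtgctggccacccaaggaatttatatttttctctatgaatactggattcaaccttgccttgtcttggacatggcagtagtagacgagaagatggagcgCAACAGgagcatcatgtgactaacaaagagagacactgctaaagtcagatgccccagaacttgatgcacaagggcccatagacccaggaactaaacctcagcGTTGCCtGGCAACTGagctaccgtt
Ccdc60: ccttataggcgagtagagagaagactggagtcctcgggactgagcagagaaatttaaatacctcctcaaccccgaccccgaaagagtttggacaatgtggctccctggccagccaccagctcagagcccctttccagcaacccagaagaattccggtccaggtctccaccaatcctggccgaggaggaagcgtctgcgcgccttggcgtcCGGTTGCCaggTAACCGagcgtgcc
Fbp1: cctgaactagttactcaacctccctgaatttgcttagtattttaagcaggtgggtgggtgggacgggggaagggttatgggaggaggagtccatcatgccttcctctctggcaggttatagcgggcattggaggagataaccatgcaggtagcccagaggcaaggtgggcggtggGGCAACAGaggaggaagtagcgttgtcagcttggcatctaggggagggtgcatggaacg
Cntd1: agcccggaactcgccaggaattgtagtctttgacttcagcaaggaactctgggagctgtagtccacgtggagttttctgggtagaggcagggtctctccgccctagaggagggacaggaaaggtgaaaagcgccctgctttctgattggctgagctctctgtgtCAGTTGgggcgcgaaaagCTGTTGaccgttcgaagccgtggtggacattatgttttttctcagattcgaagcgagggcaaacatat
In *Pdcl2* X-box arms begin 25 and 18 bases before the start, facing each other, and the second overlaps MYB letters. In *Ccdc60* an X-box arm overlaps 1 of 2 matches of the MYB letters, and the other match lies downstream of it. *Fbp1* has 1 overlapping pair of an X-box arm and MYB letters. *Cntd1* has MYB letters alone, at 86 and 68 bases before the start. A match of letters is a description and no evidence of binding.

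Gene lists placed these changes along spermatogenesis. Of 25 tested genes of the pachytene program, 23 had a log2 fold change below 0 with 6 libraries (50.4% of all genes did), with a median of -0.50. Without *Mael*+/- replicate 1 it was 21 of 25 (49.5% of all genes) with a median of -0.16, and *Adam2* and *Hspa2* were called. The level of the list, the median over its genes of log2 CPM relative to each gene's mean, was 1.01, -0.11 and -0.06 in *Mael*+/- replicates 1 to 3 and -0.22, -0.28 and -0.30 in the *Mael*-/- libraries. The *Mael*-/- libraries were thus lowest, by a margin much smaller than the distance of replicate 1 from the other controls. *Meikin* (*4930404A10Rik*), which guards cohesion at meiosis I, had 7.58, 2.38 and 2.42 CPM against 1.02, 1.239 and 1.09 CPM, without overlap, and did not pass in either fit.

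Most flagellar and acrosomal genes tested were highest in *Mael*+/- replicate 1 as well. Of 31 axoneme genes, 26 were lower with 6 libraries (median -0.61) and 21 with 5 (median -0.25). None was called lower in either fit, and 12 of the 31 had no overlap downward with 5 libraries (9.81% of all genes). *Spag6*, a protein of the central pair, had 9.53, 0.878 and 2.15 CPM in *Mael*+/- testes and 0.364, 0.0991 and 0.401 CPM in *Mael*-/- testes (edgeR adjusted p 0.501, and 0.0677 without replicate 1). *Tekt1*, a tektin of the flagellum, had 14.6, 2.08 and 3.36 CPM against 0.873, 1.04 and 1.39 CPM. *Dnah6* and *Dnah5* went the other way, and *Dnah5* had 1.69, 1.79 and 2.0 CPM against 4.37, 3.12 and 3.03 CPM without passing. The median over 13 acrosome genes was -0.55 with 6 libraries and -0.03 over 14 with 5, and none was called.

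Lists of earlier stages had other signs. Of 9 genes of meiotic entry, 7 were higher with 6 libraries (median 0.11) and all 9 with 5 (median 0.34), none of them called. *Ythdc2*, which drives the switch from mitosis to meiosis, had 152, 93.0 and 96.9 CPM against 125, 128 and 108 CPM. For 15 genes of the synaptonemal complex and chromosome axis, 12 were lower with 6 libraries (median -0.16) and 11 were higher with 5 (median 0.22), again with no call. *Sycp1*, the transverse filament, had 605, 157 and 262 CPM against 302, 296 and 170 CPM, so the genotypes overlapped throughout and the sign depended on replicate 1 (log2 fold change -0.42, SE 0.41, with it, and 0.29, SE 0.21, without). Recombination genes split likewise, 15 of 22 lower with 6 libraries (median -0.14) and 13 of 22 higher with 5 (median 0.07), where *Meiob* was called higher and *Cntd1* lower. Over 18 spermatogonial genes the medians were -0.03 and -0.08, with no call.

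The piRNA pathway, apart from *Mael*, held no called gene. Of its 24 tested members 21 were lower with 6 libraries (median -0.23) and 18 with 5 (median -0.05). *Piwil1*, the Piwi protein of pachytene cells, had 78.8, 10.9 and 13.9 CPM in *Mael*+/- testes and 8.08, 8.08 and 6.82 CPM in *Mael*-/- testes. *Tdrd9*, a helicase of germ granules, had 187, 141 and 126 CPM against 111, 99.7 and 109 CPM. Neither overlapped, and their edgeR adjusted p without replicate 1 was 0.0808 and 0.271. *Mybl1*, *Piwil1* and *Tdrd6* are on both the piRNA and the pachytene list. Of 17 tested genes on the list for transposon silencing through chromatin, *Morc2b* was called lower without replicate 1, and the medians were 0.01 and -0.01. Whether *Morc2b* silences transposons was not tested. *Dnmt3l*, which acts in fetal germ cells, stayed at 1.02 to 1.79 CPM in all libraries.

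**Figure D5:**
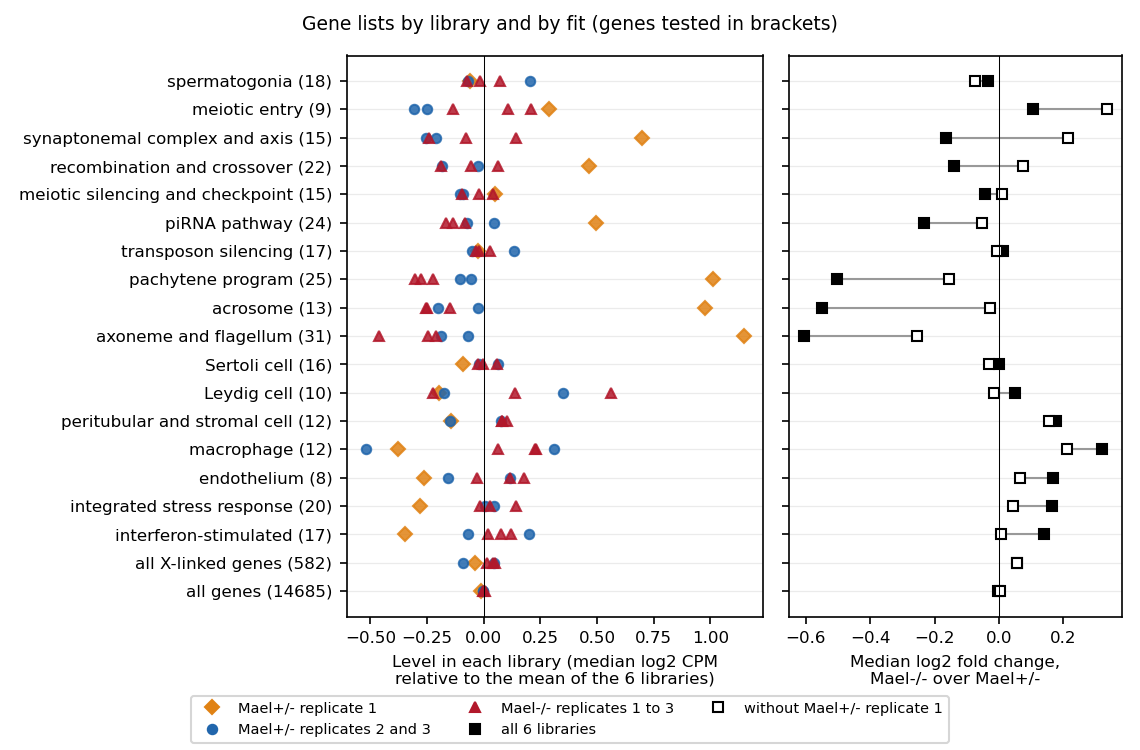
Gene lists, with the number of genes tested in brackets. On the left, the level of each list in each library (median over genes of log2 CPM relative to the gene's mean over the 6 libraries); on the right, the median log2 fold change in *Mael*-/- over *Mael*+/- testes with all 6 libraries (filled squares) and without *Mael*+/- replicate 1 (open squares). For the pachytene, acrosome and axoneme lists the diamond of *Mael*+/- replicate 1 lies between 0.98 and 1.15, far right of the other libraries, and the medians on the right move toward 0 without it.

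Somatic cells were followed through their markers. All 12 peritubular and stromal genes were higher with 6 libraries (median 0.18) and 11 with 5 (median 0.16). Their summed level ran from 2999 to 3461 CPM in *Mael*+/- and from 3357 to 3574 CPM in *Mael*-/- testes, which overlap. All 12 macrophage genes were higher with 6 libraries (median 0.32, sum 204 to 343 CPM against 320 to 326 CPM), and 11 with 5 (median 0.21). No gene of either list was called. Medians for Sertoli cells were 0.00 and -0.03 and for Leydig cells 0.05 and -0.01, with sums of 588 to 933 CPM in *Mael*-/- and 612 to 895 CPM in *Mael*+/- testes for the latter. The part of somatic cells in the results for germ cell genes was not tested.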

How the data were processed

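Total RNA was purified from aliquots of cycloheximide-treated testis extracts. Per the labels and methods, ribosomal RNA was depleted and libraries were stranded. The authors aligned the single-end reads to mm10 with STAR 2.6.0c and counted them over whole mRNAs with featureCounts (Subread 1.6.4). The strand setting, and whether duplicate reads were collapsed, are not given in the sources used here, so a gene and an overlapping partner may share reads, and intervals and floors cover counting error only. The deposited table holds these values as raw whole-number counts, without normalization. The deposited fold changes (log2), p-values and adjusted p-values of the authors' DESeq2 1.24.0 analysis were not used. Rows of 5138235 repeat copies, 7.65 to 10.2% of counts per RNA library, were left out of library sizes and tests.

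The main test was that of edgeR 4.0.16 under R 4.3.3 (quasi-likelihood F-test, TMM, default filter on low counts, Benjamini-Hochberg adjustment over all genes tested, call under 0.05), once over 6 libraries and once without *Mael*+/- replicate 1. Nothing says whether replicates were separate litters, so p-values measure the spread between these libraries. No libraries held identical counts. CPM are scaled by gene total and TMM factor. A group at 0 was compared through a floor of 3 counts per library, and one with 1 to 3 counts in all through an exact 95% interval. List levels used log2(CPM + 0.1). Levels per length used RefSeq exon unions of GRCm38.p6, the build mm10, and 19307 gene names matched a current symbol, 1164 an older one and 104 none.

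Comparison, lists and alternatives were chosen with earlier results of these data known. A rule set the genes that could be named: *Mael*, genes called with 6 libraries, up to 12 each way added by the second fit (no overlap, mean of at least 20 counts), the 12 lower genes of smallest p, and 3 per list. Not all of them are printed. The called genes *Cdh12*, *Hao1*, *C1rb*, *Clca4*, *Meiob*, *Fbxo47*, *Hist1h2aa*, *Usp26*, *Pet2*, *Tktl1*, *Ly6k*, *Cntd1*, *Hspa2*, *Kcnt1*, *Tktl2*, *Tcam1* and *Tcea2* and the list members printed as examples were chosen after their values were seen. Alternatives were DESeq2 1.42.0, voom of limma 3.58.1 with weights per sample, size factors by median of ratios, other filters and thresholds, thinned counts, a replicate block, and leaving out each library. The test was checked on simulated counts.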

Additional observations from a re-analysis of the deposited data

Results flagged for a closer look

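Ribosome footprints, which the comparison of RNA did not use, showed a signal for the genes raised in RNA. For 16 of the 16 genes that were higher in *Mael*-/- RNA with all 6 libraries, every *Mael*-/- footprint library lay above every *Mael*+/- footprint library in CPM, while 4.77% of all genes tested in RNA did so. *Reg2* had 0, 0 and 1 footprint counts in *Mael*+/- and 96, 137 and 50 in *Mael*-/- extracts, and *Lrp1b* had 1, 1 and 0 against 24, 25 and 13. At the low end *Mup3* had 0 counts in each *Mael*+/- library and 5, 1 and 1 in *Mael*-/- libraries, which is near the floor of 3 counts. Of the 23 genes lower in RNA without *Mael*+/- replicate 1, 18 had every *Mael*-/- footprint library below every control, against 4.79% of all genes tested. Per the methods, the RNA came from aliquots of the extracts that gave the footprints, so the assays do not give independent animals. The genes were chosen on RNA of those extracts, so their footprints are no independent test of them. With 3 libraries a group, no library was tested as an outlier.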

How the results depend on the processing

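With 6 libraries the 17 calls became 66 with DESeq2 (34 higher, 32 lower), 36 with voom and quality weights (30 higher, 6 lower) and 4 under a filter at a mean of 50 counts, which removes most of the raised genes by its construction. They ranged from 2 (without *Mael*-/- replicate 1) to 64 (without *Mael*+/- replicate 1) when 1 library was left out, with 14, 8, 7 and 8 without *Mael*+/- replicates 2 and 3 and *Mael*-/- replicates 2 and 3. Without *Mael*+/- replicate 1 the 64 calls became 97 at an adjusted p under 0.10 and 24 under the same filter, and ranged from 37 (without *Mael*-/- replicate 1) to 139 (without *Mael*+/- replicate 3, which leaves 1 control that is assumed to vary like the other libraries). Where not stated, the cause was not tested. Apart from these and the replicate block over 6 libraries given next, the alternatives kept the counts of calls within 1.5 times.

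Whether the replicate numbers pair the libraries could not be decided. Deviations from the group means of libraries with the same number correlated at 0.149, 0.0035 and 0.0781 across genes, not all above 0.1. *Mael*+/- replicate 2 went best with *Mael*-/- replicate 3 (0.214). Deviations within a small group cancel each other and *Mael*+/- replicate 1 stood apart, so these values cannot exclude a shared litter or preparation. With the replicate number as a block, 50 genes were called over 6 libraries (26 higher, 24 lower) and 89 without *Mael*+/- replicate 1.

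Of 1650 values of named genes under an alternative, 5 changed sign: *Sycp1* to 0.0396 with voom and to 0.29 without *Mael*+/- replicate 1, *Fbxo43* to -0.057 without *Mael*+/- replicate 3, and *Junb* to 0.36 and *Fos* to 0.15 without *Mael*+/- replicate 2. When 1 library was left out, the log2 fold change ran from -0.76 to 0.29 for *Sycp1*, from -0.057 to 1.08 for *Fbxo43*, from -0.90 to 0.36 for *Junb* and from -0.66 to 0.15 for *Fos*. A further 93 lost the threshold and 89 gained it, and 298 of 310 list medians moved by less than the spread between replicates. The spermatid and lymphocyte lists held no gene with a mean of 50 counts, so that filter gave no median. Depth limits the genes at 0 or a few counts in controls, whose folds are bounds or wide intervals.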

Other observations

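Targets of the integrated stress response, the program that follows phosphorylation of eIF2 alpha, leaned upward without a call. Of 20 tested, 17 were higher with 6 libraries (median log2 fold change 0.17) and 15 with 5 (median 0.04). The level of the list was lowest in *Mael*+/- replicate 1, at -0.28, with 0.05 and 0.01 in replicates 2 and 3. The *Mael*-/- libraries were at -0.01, 0.03 and 0.14, so the genotypes overlapped. *Chac1*, an enzyme that degrades glutathione, had 0.910, 1.43 and 0.566 CPM in *Mael*+/- and 3.64, 3.07 and 2.04 CPM in *Mael*-/- testes, and *Ddit3*, the transcription factor CHOP, had 23.1, 19.6 and 24.5 CPM against 28.2, 30.8 and 27.1 CPM. Neither overlapped between genotypes and neither passed in edgeR. *Atf3* went the other way in both fits, with 6.02, 10.5 and 15.5 CPM against 8.88, 7.63 and 10.1 CPM. Of 17 interferon-stimulated genes, 14 were higher with 6 libraries (median 0.14), but 10 of 19 with 5 (median 0.01), and the level of the list was lowest in *Mael*+/- replicate 1, at -0.35. The 14 targets of p53 split evenly, 7 each way in both fits, and *Plk2* had 27.7, 34.2 and 28.3 CPM against 38.3, 37.3 and 35.5 CPM without passing.

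Immediate early genes varied among the controls. *Junb* had 15.6, 63.8 and 18.8 CPM in *Mael*+/- and 22.6, 17.3 and 26.3 CPM in *Mael*-/- testes, and *Nr4a1* had 15.1, 49.3 and 14.4 CPM against 8.81, 10.7 and 20.3 CPM, both highest in *Mael*+/- replicate 2. Checkpoint and meiotic silencing genes other than *H2afx* were not called. *Scml2*, an X-linked Polycomb protein of sex chromosome silencing, had 258, 241 and 215 CPM against 290, 288 and 260 CPM, without overlap.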
